A study of Mus musculus with 4 samples.

Results

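Purinergic receptors and a nucleotide-degrading enzyme were examined in RNA from sorted mouse spinal cells. The 10 genes were chosen by name and comprise the nucleotide receptor genes P2ry12, P2ry13 and P2ry6, the related receptor gene Gpr34, the ATP-gated channel genes P2rx2, P2rx4 and P2rx7, the adenosine receptor genes Adora1 and Adora3, and the ectonucleotidase gene Entpd1. They are 10 of 42458 rows of the count table and were chosen with earlier results of these data known. Cells came from 4 C57BL6 mice, named wildtype C57BL6/J in the series text, which had received the adeno-associated virus AAV2-CAG-tdT into the cerebral ventricles. The CAG promoter is not specific to a cell type. Per the labels, pieces of spinal cord around the central canal were digested, and 50 live tdTomato-positive cells per mouse were sorted so as to enrich neurons in contact with cerebrospinal fluid (CSF-cNs), which line the canal. Each mouse gave 1 library, all 4 libraries form a single group, and age was not given in the sources used here.

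Extracellular nucleotides signal through ion channels of the P2X family and through G protein-coupled receptors of the P2Y family, and ectoenzymes convert them stepwise to adenosine, which acts on its own receptors. In microglia, the resident macrophages of the central nervous system, the ADP receptor P2Y12 directs processes towards sites of ATP release, P2Y6 responds to UDP and takes part in phagocytosis, and P2X4 and P2X7 are ATP-gated cation channels. CD39, the product of Entpd1, hydrolyses ATP and ADP. P2X2 is a channel described in CSF-contacting neurons of the rat.

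The libraries held 83007030 to 115479640 counts, and lists of 4 values below follow the order of mice 1, 2, 3 and 4. Values are CPM, counts scaled to the TMM-normalized library size, unless another unit is named. A list of 8 CSF-cN markers summed to 20.3, 12.9, 941 and 846 CPM, and the viral transgene to 0.0463, 0.621, 157 and 1709 CPM. The summed markers of the labelled cell type were thus low in mice 1 and 2, in which Gata3 had no count and Pkd2l1 stood at 17.9 and 0.193 CPM. The marker Tal1 stood at 0.898, 10.3, 10.8 and 14.8 CPM, so mouse 2 lay close to mouse 3 for this gene. Over the 4 libraries, edgeR called 1 of the 8 markers above 10 CPM (Pkd2l1) and limma-voom none of them. A list of 10 microglia markers that holds none of the purinergic genes summed to 44379, 49902, 28849 and 42057 CPM, which was 3.00% to 4.90% of the counts, and all 10 were above 10 CPM by the test described next. In pooled cells, fewer cells of a type and less RNA per cell cannot be told apart.

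Of the 10 genes, 8 were called above 10 CPM. Genes that reached 10 counts over the libraries were tested with edgeR's quasi-likelihood test for a level other than 10 CPM, with Benjamini-Hochberg adjustment over all 18522 tested genes. Of those genes 36.7% were called above that level and 0.664% below it, and none of the 10 purinergic genes was called below. The 8 called genes were P2ry12, P2ry13, P2ry6, Gpr34, P2rx4, P2rx7, Entpd1 and Adora3, and each stood at 10 CPM or more in all 4 libraries, as did 36.5% of the tested genes. Adora1 was tested and not called, and P2rx2 had no count and was not tested. The median log2 level relative to 10 CPM was 3.93 over the 9 tested genes and -0.07 over all tested genes. limma-voom also called 8 of them above and none below, against 35.9% of all tested genes above and 33.3% below, so the share below 10 CPM depended strongly on the test. Set against 100 CPM, 5 were called above (P2ry12, P2ry13, P2ry6, Gpr34 and Entpd1), against 5.82% of all tested genes. The same 8 genes were called above 10 CPM without mice 1 and 2, with log2 levels between 3.05 (P2rx7) and 9.36 (P2ry12).

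**Figure D1:**
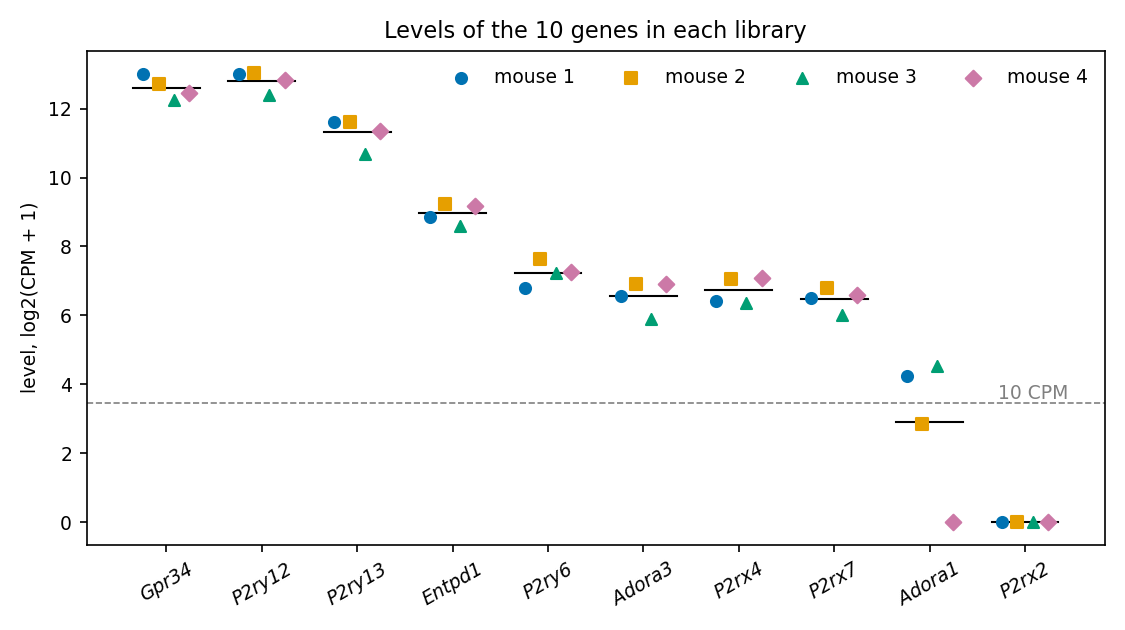
Level of each of the 10 genes in each library, as log2(CPM + 1), ordered by level per exonic length. Points are single mice (1 library each), black lines are means over 4 mice, and the dashed line marks 10 CPM. The values of 8 genes lie above the dashed line in every mouse, Adora1 lies on both sides of it, and P2rx2 lies at 0.

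P2ry12, the ADP receptor gene used as a marker of homeostatic microglia, stood at 8211, 8338, 5348 and 7256 CPM. Its mean was 7288 ± 1381 CPM (SD, n = 4), with a log2 level of 9.51 relative to 10 CPM (SE 0.033, edgeR adjusted p = 1.4e-10). Here and below, the SE is derived from the test statistic and does not measure the spread between mice. For P2ry12 the SD of log2(CPM + 1) over the 4 mice was 0.30. The library of mouse 3 was the lowest and the other 3 lay close together. P2ry13, the gene of a further ADP receptor, followed the same order except between mice 1 and 2, at 3135, 3119, 1625 and 2601 CPM (mean 2620 ± 708 CPM, SD, n = 4; log2 level 8.03, SE 0.052, edgeR adjusted p = 1.1e-09). Mouse 3 again had the lowest value.

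The genes P2ry12 and P2ry13 are neighbours. On GRCm38, the assembly also called mm10, P2ry12 (ENSMUSG00000036353.13) covers 59216272 to 59262871 of chromosome 3 and P2ry13 (ENSMUSG00000036362.2) covers 59207892 to 59210882, both on the minus strand. They are 5389 bases apart, and both lie within the span of Med12l, a Mediator subunit gene on the plus strand (59005825 to 59318682). The receptor genes P2ry14 and Gpr171 lie on the minus strand of the same span. P2ry14, whose product is a receptor for UDP-glucose, had 2 counts in all, both in mouse 2, and Gpr171 had none. Of these 4 receptor genes, P2ry12 and P2ry13 were the only ones with more than 3 counts in any library. Med12l itself stood at 19.2, 50.9, 20.5 and 68.7 CPM, which per kb of exon was 3.12 CPM on average, against 2863 CPM per kb for P2ry12. The libraries keep no strand, and the exons of P2ry12 and Med12l share 9 bases.

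The start regions of both pairs of neighbouring members, P2ry12 with P2ry13 and P2rx4 with P2rx7, are shown because the neighbours can be compared in level. Each runs from 250 bases before to 50 bases after the gene start in RefSeq (GRCm38.p6), in the direction of transcription. Capitals mark GAGGAA, known as the PU box and bound by the myeloid factor PU.1, searched on both strands. The windows are chr3:59262936-59263235 (minus strand) for P2ry12, chr3:59210833-59211132 (minus strand) for P2ry13, chr5:122707294-122707593 (plus strand) for P2rx4 and chr5:122643677-122643976 (plus strand) for P2rx7.
P2ry12: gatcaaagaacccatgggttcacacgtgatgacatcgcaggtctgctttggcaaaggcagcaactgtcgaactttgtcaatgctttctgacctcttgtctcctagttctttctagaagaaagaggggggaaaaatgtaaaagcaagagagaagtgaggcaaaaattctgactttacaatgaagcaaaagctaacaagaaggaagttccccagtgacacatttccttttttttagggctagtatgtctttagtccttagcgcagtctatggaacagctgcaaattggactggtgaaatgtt
P2ry13: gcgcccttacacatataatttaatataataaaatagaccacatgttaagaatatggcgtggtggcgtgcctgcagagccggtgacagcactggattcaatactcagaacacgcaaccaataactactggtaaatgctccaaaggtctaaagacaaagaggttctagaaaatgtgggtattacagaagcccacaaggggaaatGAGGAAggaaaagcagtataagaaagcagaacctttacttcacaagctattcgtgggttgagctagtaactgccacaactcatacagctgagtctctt
P2rx4: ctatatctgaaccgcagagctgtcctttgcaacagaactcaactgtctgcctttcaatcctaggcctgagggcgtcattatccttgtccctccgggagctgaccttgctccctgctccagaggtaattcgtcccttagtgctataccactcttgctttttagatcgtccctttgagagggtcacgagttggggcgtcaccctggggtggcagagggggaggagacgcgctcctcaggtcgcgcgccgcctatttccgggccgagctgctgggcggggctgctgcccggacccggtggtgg
P2rx7: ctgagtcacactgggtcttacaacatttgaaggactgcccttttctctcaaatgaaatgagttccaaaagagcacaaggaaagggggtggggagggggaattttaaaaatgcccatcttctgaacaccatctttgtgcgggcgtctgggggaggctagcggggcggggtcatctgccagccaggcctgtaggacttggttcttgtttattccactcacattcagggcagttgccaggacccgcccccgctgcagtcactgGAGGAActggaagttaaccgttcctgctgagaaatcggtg

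The motif began at position -48 from the start in P2ry13 and at position 11 in P2rx7, and its letters did not occur in the windows of P2ry12 and P2rx4. RefSeq windows were found for 7 of the 10 genes, which have 10 windows in all (P2rx7, Entpd1 and Adora1 have 2 each). Those of 4 genes held the motif (P2ry13, P2rx7, Entpd1 and Adora3), in 5 of 10 windows. Of all 32851 windows of this length, 28.3% held it. P2ry6, Gpr34 and P2rx2 had no window in the table.

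Gpr34 codes for a receptor of the P2Y12-like group whose known ligand is lysophosphatidylserine. It stood at 8264, 6756, 4842 and 5546 CPM, averaging 6352 ± 1499.8 CPM (SD, n = 4; log2 level 9.31, SE 0.036, edgeR adjusted p = 2.1e-10). Mouse 1 was the highest and mouse 3 the lowest. The gene (ENSMUSG00000040229.11) occupies 13632089 to 13640858 of the X chromosome (plus strand), within the span of Cask on the minus strand but with no shared exon base. Cask, a scaffold kinase gene, averaged 65.3 ± 8.24 CPM (SD, n = 4).

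P2ry6, the UDP receptor gene, was far lower, at 110, 200, 148 and 151 CPM (mean 152 ± 36.9 CPM, SD, n = 4; log2 level 3.93, SE 0.10, edgeR adjusted p = 2.8e-07). Its lowest value was in mouse 1 and its highest in mouse 2, so mouse 3 was not the lowest library for this gene. P2ry6 (ENSMUSG00000048779.5) occupies 100937630 to 100974649 of chromosome 7 (minus strand).

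Levels of pairs of genes were compared within each mouse as the log2 ratio of CPM per kb of exon, and tested by flipping the signs of the 4 ratios in every combination, an exact two-sided permutation test. With 4 mice this test cannot give a p below 0.13, and p-values were adjusted over 5 pairs. P2ry12 exceeded P2ry13 in 4 of 4 mice, by log2 ratios of 1.38, 1.41, 1.71 and 1.47 (mean 1.49 ± 0.15, SD; exact p = 0.13, adjusted 0.21), a 2.81-fold difference on average. P2ry12 exceeded P2ry6 in 4 of 4 mice, by a mean log2 ratio of 5.77 ± 0.45 (SD, n = 4; exact p = 0.13, adjusted 0.21). The ratio to P2ry6 was greatest in mouse 1 (6.41) and smallest in mouse 3 (5.36).

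P2ry12 and Gpr34 were not separated. Their log2 ratio was -0.29, 0.02, -0.14 and 0.10 (mean -0.08 ± 0.18, SD, n = 4; exact permutation p = 0.5, adjusted 0.625). P2ry12 was the higher in 2 of 4 mice. The sign of the mean turned with the length used: it was 0.21 without length scaling and 0.040 with the longest annotated transcript of each gene.

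**Figure D2:**
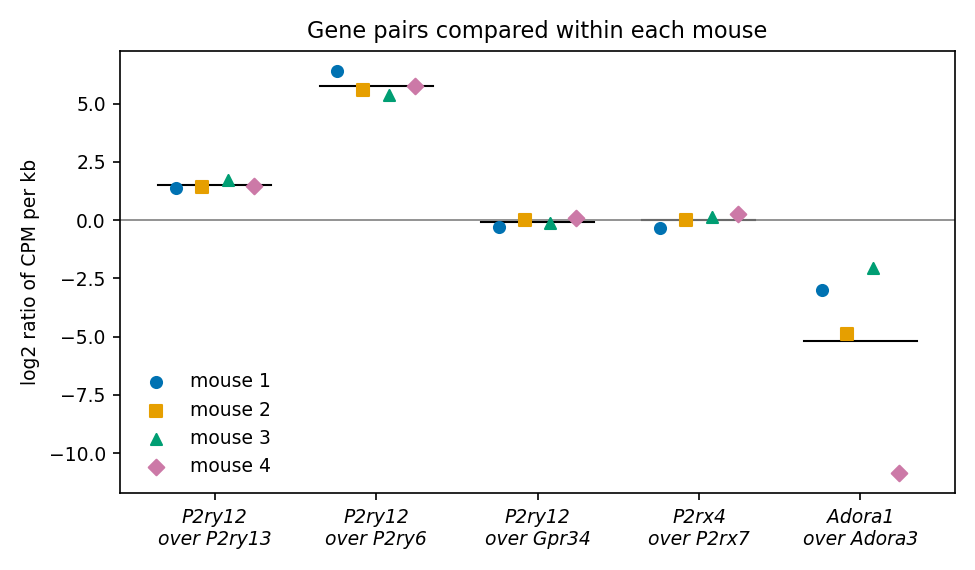
Log2 ratio of CPM per kb of exon for 5 pairs of genes, with the first-named gene on top of the ratio. Points are single mice and black lines are means over 4 mice. P2ry12 lies above P2ry13 and P2ry6 in every mouse, the pairs with Gpr34 and of P2rx4 with P2rx7 scatter around 0, and Adora1 lies below Adora3 in every mouse, with the lowest point in mouse 4, where Adora1 had no count.

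Of the P2X channel genes, P2rx4 and P2rx7 were present at similar levels and P2rx2 was without counts. P2rx4 stood at 84.4, 132, 81.5 and 135 CPM (mean 108 ± 29.4 CPM, SD, n = 4; log2 level 3.44, SE 0.12, edgeR adjusted p = 9.8e-07). Mice 2 and 4 had the higher values and mice 1 and 3 the lower, with no value between. P2rx7, whose channel is linked to inflammasome activation, stood at 89.9, 111, 63.1 and 95.6 CPM (mean 89.9 ± 20.0 CPM, SD, n = 4; log2 level 3.17, SE 0.12, edgeR adjusted p = 1.3e-06). Here mouse 3 was the lowest and mouse 2 the highest.

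P2rx7 (ENSMUSG00000029468.17, 122643911 to 122691432) and P2rx4 (ENSMUSG00000029470.15, 122707544 to 122729738) lie on the plus strand of chromosome 5, 16111 bases apart. Per kb of exon they averaged 15.1 ± 3.35 CPM for P2rx7 and 15.4 ± 4.19 CPM for P2rx4 (SD, n = 4 each). The log2 ratio of P2rx4 over P2rx7 was -0.33, 0.02, 0.13 and 0.27 (mean 0.02 ± 0.25, SD; exact permutation p = 0.875, adjusted 0.875). The mean was -0.014 without mouse 3, -0.058 without mouse 4 and 0.60 with the longest annotated transcript of each gene, so no order between these channel genes was established.

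P2rx2 (ENSMUSG00000029503.16, chromosome 5, 110339812 to 110343212, minus strand) had 0 counts in each of the 4 libraries. At these depths a count of 0 allows up to 3 counts, which is 0.0278, 0.0321, 0.0348 and 0.0334 CPM and covers counting error only. The CSF-cN markers summed to 941 and 846 CPM in mice 3 and 4, where the limit for P2rx2 was 0.0348 and 0.0334 CPM.

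Among the adenosine receptor genes, Adora3 was present in every library and Adora1 in 3 of 4. Adora3 codes for the A3 receptor, which couples to Gi proteins. It stood at 94.1, 120, 58.9 and 120 CPM (mean 98.2 ± 28.8 CPM, SD, n = 4; log2 level 3.30, SE 0.13, edgeR adjusted p = 2.0e-06). Mouse 3 was the lowest. Adora3 (ENSMUSG00000000562.5) occupies 105870858 to 105908926 of chromosome 3 (plus strand) and shares 779 exonic bases with Tmigd3 on the same strand. How the counting divided reads between them is not given in the sources used here. Tmigd3 reached at most 0.336 CPM in any library.

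Adora1, the gene of the Gi-coupled A1 receptor found on neurons and glia, stood at 17.9, 6.14, 22.2 and 0 CPM, from 1938, 574, 1917 and 0 counts. With 95% Clopper-Pearson intervals, which cover counting error only, the levels lay at 17.2 to 18.8, 5.65 to 6.67 and 21.2 to 23.2 CPM in mice 1, 2 and 3, and none overlapped another. The mean was 11.6 ± 10.3 CPM (SD, n = 4), and the difference of this level from 10 CPM did not pass the test (log2 level 0.21, SE 1.16, edgeR adjusted p = 0.88). The log2 level was -0.049 without mouse 1, -0.33 without mouse 3 and -2.26 by limma-voom, with adjusted p between 0.30 and 0.98.

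The higher Adora1 values, in mice 1 and 3, were found in the libraries with the higher oligodendrocyte signal. A list of 8 oligodendrocyte markers summed to 14709, 236, 18726 and 453 CPM, and its member Mog had no count in mouse 4. Of the 8 markers, edgeR called 7 above 10 CPM, DESeq2 6 and limma-voom 5. Of all tested genes, edgeR called 36.7% above that level. The part of oligodendrocytes in the Adora1 counts was not tested. Adora1 (ENSMUSG00000042429.8, chromosome 1, 134199223 to 134235431, minus strand) shares 1162 exonic bases with Mybph on the plus strand, and without strand the reads there cannot be told apart. Mybph stood at 0.0185, 2.86, 2.09 and 8.16 CPM and was highest in mouse 4.

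Per kb of exon, Adora1 was below Adora3 in 4 of 4 mice, with log2 ratios of -3.02, -4.90 and -2.04 in mice 1, 2 and 3. In mouse 4, where Adora1 had no count, it was at least 5559-fold lower, with Adora1 taken at 3 counts in that library. The mean log2 ratio was -5.20 ± 3.95 with 0.1 CPM added to each value (SD, n = 4; exact permutation p = 0.13, adjusted 0.21), and -3.32 over mice 1 to 3.

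Entpd1 codes for CD39, the ectoenzyme that removes the ligands of the nucleotide receptors above, and stood at 465, 605, 386 and 571 CPM (mean 507 ± 100.1 CPM, SD, n = 4; log2 level 5.66, SE 0.069, edgeR adjusted p = 1.2e-08). Mouse 2 was the highest and mouse 3 the lowest. Entpd1 (ENSMUSG00000048120.16) occupies 40612366 to 40741602 of chromosome 19 (plus strand).

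By level per kb of exon, the order of the 10 genes was Gpr34 (3039 ± 718 CPM per kb), P2ry12 (2863 ± 542), P2ry13 (1036 ± 280), Entpd1 (90.9 ± 17.9), P2ry6 (52.7 ± 12.8), Adora3 (26.3 ± 7.73), P2rx4 (15.4 ± 4.19), P2rx7 (15.1 ± 3.35), Adora1 (2.00 ± 1.78) and P2rx2 (0), each with SD over 4 mice. Neighbours whose ranges over the mice overlapped were Gpr34 and P2ry12, Adora3 and P2rx4, P2rx4 and P2rx7, and Adora1 and P2rx2. Of these, Adora3 was nevertheless the higher within 4 of 4 mice. The ranges of the remaining neighbours did not overlap with the union of exons as the length. Those of Entpd1 and P2ry6 nearly met, at a lowest value of 69.22 and a highest of 69.13 CPM per kb. Among 15405 tested genes with a gene model, Gpr34 ranked 8 and P2ry12 ranked 10 by level per kb.

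**Figure D3:**
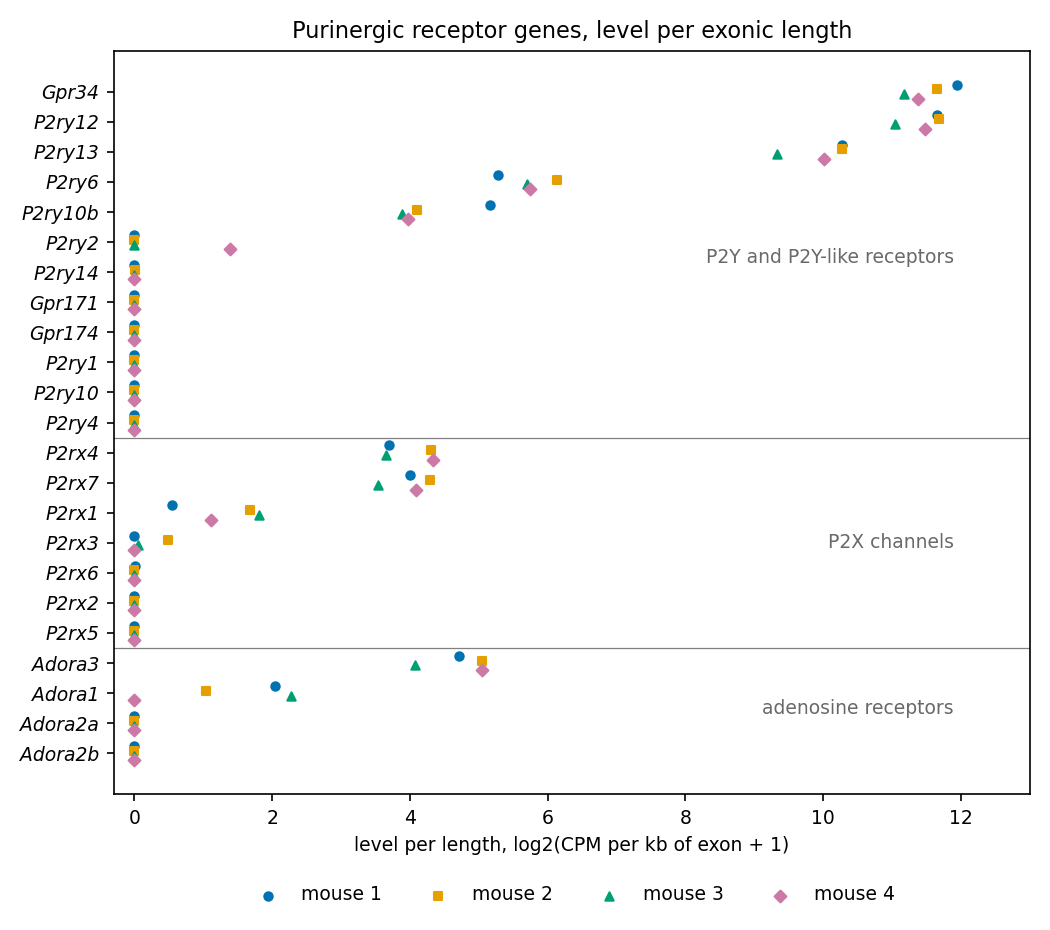
Level of 23 purinergic and related receptor genes as log2(CPM per kb of exon + 1). Each point is 1 mouse; rows are grouped into P2Y and P2Y-like receptors, P2X channels and adenosine receptors. Gpr34, P2ry12 and P2ry13 lie far to the right of all other receptors, and most of the remaining genes lie at or near 0.

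Summed per kb of exon over 23 receptor genes (the 9 receptor genes among the 10 and 14 further P2Y, P2Y-like, P2X and adenosine receptor genes), Gpr34, P2ry12 and P2ry13 made up 98.5%, 98.0%, 97.9% and 97.9% of the receptor signal. P2ry12 alone made up 40.6 ± 2.12% and Gpr34 42.9 ± 3.09% (SD, n = 4). The P2X channels made up 0.463 ± 0.0981% and the adenosine receptors 0.403 ± 0.0635%. The share of P2ry12 lay between 37.7% and 42.7% and that of P2ry13 between 12.4% and 15.6% in the 4 libraries.

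Of the 14 further receptor genes, only 2 P2Y or P2Y-like genes and 2 P2X genes had enough counts to be tested. Of those tested, 1 was called above 10 CPM, against 36.7% of all tested genes. This was P2ry10b, a member of the P2Y10 group, at 120, 56.1, 47.9 and 51.1 CPM (log2 level 2.78, SE 0.19, edgeR adjusted p = 2.4e-05), with mouse 1 well above the others. P2ry2, a receptor gene for ATP and UTP, had counts in mouse 4 alone (6.37 CPM). P2rx1 stood at 1.21, 5.75, 6.60 and 3.02 CPM, values that are uncertain because the table holds a second row of that name plus a number with 706 counts. P2rx3 stood at 0, 1.11, 0.104 and 0 CPM, and P2rx6 had 2 counts in all. No count was found for P2ry1, P2ry4, P2ry10, Gpr171, Gpr174, P2rx5, Adora2a or Adora2b. Of the P2X genes outside the 10, 2 were tested, and edgeR called 0 above 10 CPM (also 0 when p was not adjusted), as did limma-voom and DESeq2.

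For the 8 genes called above 10 CPM, the highest library exceeded the lowest by 1.56-fold (P2ry12) to 2.03-fold (Adora3). Over the 9 tested genes the median SD of log2(CPM + 1) between mice was 0.35, against 0.58 over all 18522 tested genes and 0.50 over the 9125 genes that averaged 10 CPM or more. The SD was 0.30 for P2ry12 and Entpd1, the lowest of the set, 0.48 for Adora3 and 2.07 for Adora1. The median was 0.36 over the 1815 genes that averaged 100 CPM or more.

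**Figure D4:**
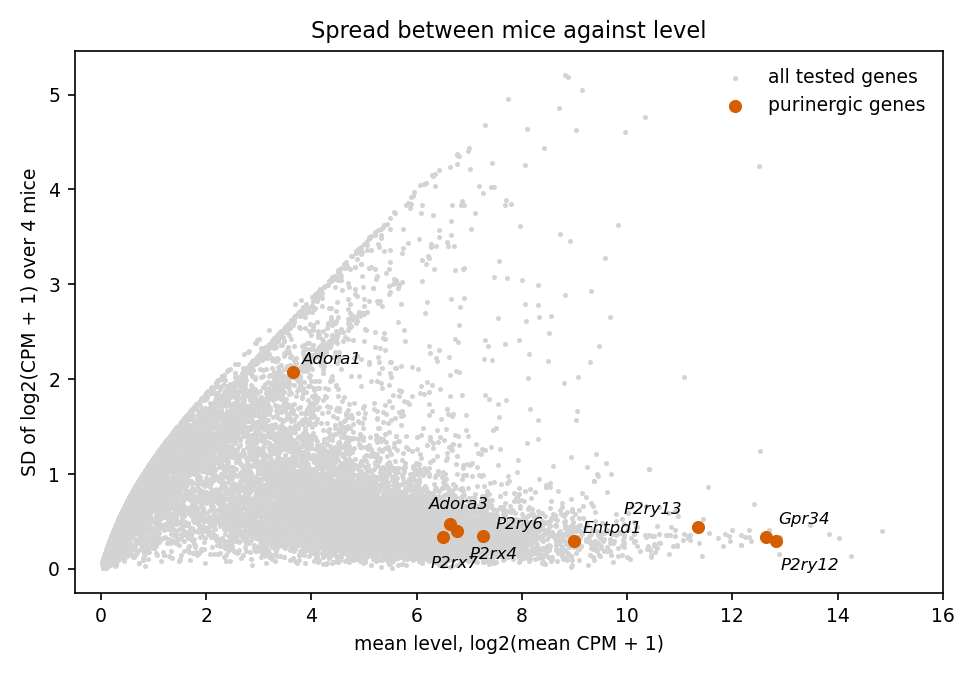
SD of log2(CPM + 1) over the 4 mice (vertical) against log2 of the mean CPM plus 1 (horizontal). Grey points are all tested genes and orange points the 9 tested purinergic genes. All of these but Adora1 (2.07) lie at an SD of 0.48 or less.

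The summed microglia list was lowest in mouse 3 and highest in mouse 2, as were P2ry12, P2rx7, Entpd1 and, by a small margin over mouse 4, Adora3. Gpr34, P2ry13 and P2rx4 shared the lowest mouse with the list but not the highest, and P2ry6 and Adora1 had their lowest value elsewhere. Divided by that sum, an alternative added after the data were seen, the median SD of log2 values over the 9 genes was 0.21. Per 1000 CPM of the list, P2ry12 stood at 185, 167, 185 and 173 CPM and P2rx7 at 2.03, 2.23, 2.19 and 2.27 CPM. The SD of the log2 ratio was 0.075 for P2ry12 and 0.072 for P2rx7, against 0.30 and 0.35 before division. These were the smallest values of the 8 genes with counts in every mouse. The SD was 0.13 for P2ry13 (0.45 before), 0.17 for Entpd1 (0.30), 0.22 for Adora3 (0.48), 0.24 for Gpr34 (0.34) and 0.32 for P2rx4 (0.40). P2ry6 went the other way, with an SD of 0.44 after division and 0.35 before, and stood at 2.47, 4.00, 5.12 and 3.60 CPM per 1000. Genes outside the 10 also moved. The SD was 0.58 for P2ry10b (0.62 before), 0.49 for Slc29a3 (0.62), 0.24 for Slc29a1 (0.36) and 0.37 for Kcnk13 (0.26). The median over all genes after this division is not given here, so the fall is not shown to be particular to the 10 genes. The part of microglial RNA in these differences was not tested.

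**Figure D5:**
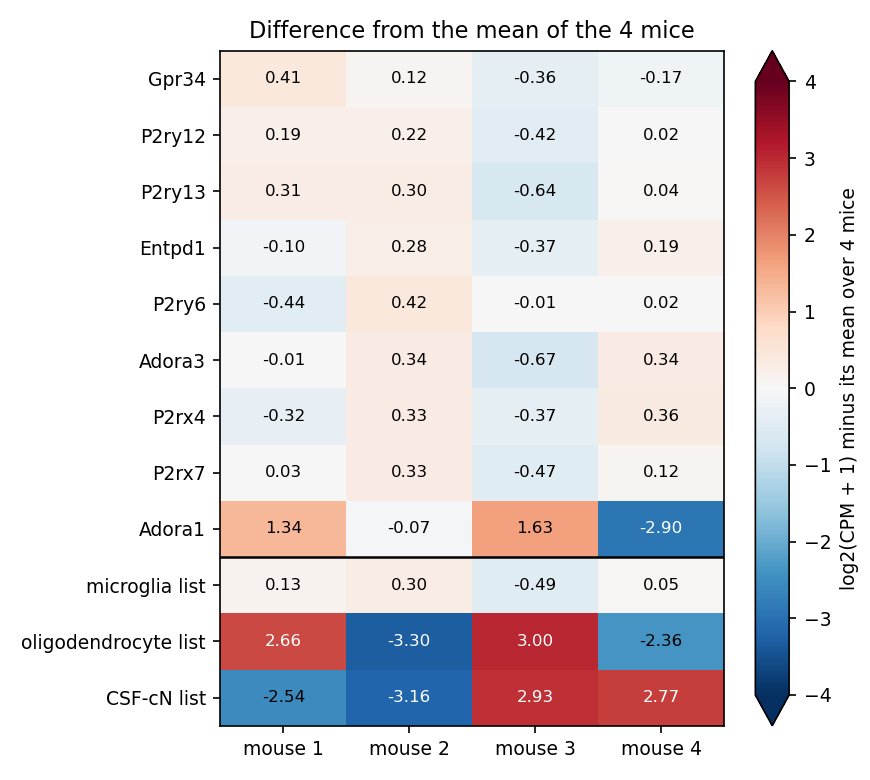
Difference of each library from the mean of the 4 mice, as log2(CPM + 1), for the 9 genes with counts and for the summed levels of 3 marker lists. Red is above and blue below the mean of the row. The rows of 8 genes stay between -0.67 and 0.42, as the microglia list does (-0.49 to 0.30), whereas Adora1 and the oligodendrocyte and CSF-cN lists range more widely.

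Genes with the most similar pattern were sought among the 1809 genes outside the 10 that averaged 100 CPM or more, by the root mean square difference of log2(CPM + 1) over the 4 mice after centring each gene on its mean. Closest to P2ry12 were Ctsf (0.023), Ivns1abp (0.029) and Cr1l (0.029). Closest to P2rx4 were Man1a2 (0.014), Rpl37a (0.044) and Rpl23a (0.052), and closest to P2rx7 were Acsl5 (0.023), F11r (0.031) and Sirpa (0.032). Man1a2, for example, stood at 107, 167, 106 and 173 CPM, with its higher values in mice 2 and 4 as for P2rx4. With 4 libraries many genes can lie this close.

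Genes listed here as acting downstream of these receptors were nearly all present, in lists chosen with earlier results of these data known. All 13 genes of a list on P2Y12 signalling and process motility were called above 10 CPM, against 36.7% of all tested genes, and stood at 10 CPM or more in all 4 libraries, with a median log2 level of 3.57. They included the Gi subunit gene Gnai2 (519 ± 118 CPM), the G protein gamma subunit gene Gng5 (338 ± 75.4 CPM), the integrin gene Itgb1 (321 ± 29.7 CPM) and Pik3cg, a phosphoinositide kinase gene (134 ± 53.8 CPM; SD, n = 4 each). Kcnk13, named in addition after its values were seen, codes for the potassium channel THIK-1 that P2Y12 can potentiate and stood at 153, 113, 109 and 101 CPM.

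Of 8 genes of a list on P2X7 and the inflammasome, 7 were called above 10 CPM, against 36.7% of all tested genes. The interleukin gene Il1b varied most of its named members, at 387, 181, 64.0 and 113 CPM, while Pycard, the inflammasome adaptor gene, averaged 183 ± 62.8 CPM, Nek7 161 ± 26.4 CPM and the pore-forming gasdermin gene Gsdmd 123 ± 27.3 CPM (SD, n = 4 each). Nlrp3, the sensor gene, stood at 23.6, 19.3, 12.7 and 16.8 CPM and was not called (log2 level 0.86, edgeR adjusted p = 0.052). Casp4, the gene of an inflammatory caspase, was only just called (log2 level 0.89, edgeR adjusted p = 0.048). Both genes were named after their values were seen. They lay on either side of the threshold depending on the setting. The adjusted p of Casp4 was 0.26 by DESeq2, 0.041 by limma-voom and 0.14, 0.099 and 0.25 by edgeR without mouse 2, 3 or 4, and that of Nlrp3 was 0.29 by DESeq2 and 0.035 by limma-voom.

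Of 8 further ectoenzyme genes, which act beside CD39, 4 had counts and 4 had none. Nt5e, which codes for the adenosine-forming enzyme CD73, had no count in any library, and neither had Entpd2, Entpd3 or Entpd8. Of the 3 tested, 2 were called above 10 CPM. Enpp2, the autotaxin gene, stood at 1843, 10.6, 2144 and 4.67 CPM, with its higher values in mice 1 and 3, the libraries with the higher oligodendrocyte sums given above. The part of those cells was not tested. By limma-voom, Enpp2 was only just called (log2 level 3.61, adjusted p = 0.049). Enpp1 stood at 69.2, 3.96, 26.9 and 23.6 CPM (log2 level 1.63, edgeR adjusted p = 0.033), and its call was lost with limma-voom (log2 level 1.07, adjusted p = 0.13). By edgeR it was also lost without mouse 1, where the log2 level was 0.89 (adjusted p = 0.29). The log2 level was 1.68 without mouse 3 and 1.72 without mouse 4, again without a call (edgeR adjusted p = 0.091 and 0.075). Enpp3 stood at 6.88, 0, 6.29 and 0 CPM, and Alpl had 3 counts.

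Of 9 genes for adenosine transport and clearance, 8 were tested and 3 called above 10 CPM, a share close to the 36.7% of all tested genes. The equilibrative transporter genes Slc29a3 (126, 285, 128 and 250.4 CPM) and Slc29a1 (119, 130, 87.3 and 158 CPM) were present in all libraries, and Slc29a3, like P2rx4, had its higher values in mice 2 and 4. Adk, the adenosine kinase gene, stood at 123, 7.63, 133 and 34.8 CPM, with the higher values in mice 1 and 3. Slc29a4 stood at 0.00926, 0, 5.26 and 19.3 CPM.

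No gene of a list of 9 for ATP and UTP release was called above 10 CPM: of 7 tested, edgeR called 0 with or without adjustment of p, and limma-voom and DESeq2 called 0. Slc17a9, the vesicular nucleotide transporter gene, stood at 1.80, 13.5, 5.30 and 17.6 CPM, and the pannexin channel gene Panx1 at 8.95, 8.68, 10.2 and 0.334 CPM. The connexin gene Gjb2 stood at 22.1, 0.0107, 24.8 and 0 CPM, and Lrrc8a, a subunit of the volume-regulated anion channel, at 6.62, 8.15, 9.17 and 6.45 CPM.

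Other cell types were followed by marker lists of their own, beside the oligodendrocyte sums of 14709, 236, 18726 and 453 CPM given above and the microglia sums of 28849 to 49902 CPM. The border macrophage list summed to 83.7, 34.8, 51.3 and 70.5 CPM. Of its 6 genes, 5 were tested and 1 was called above 10 CPM (Mrc1, 30.3 ± 9.91 CPM, SD, n = 4), and Lyve1 had no count. The list for platelets, which carry P2Y12, and mast cells, which carry the A3 receptor, summed to 41.1, 33.0, 25.4 and 50.7 CPM. Of it, Gp9 was called (30.2 ± 8.50 CPM). Kit stood at 0, 0, 4.86 and 17.0 CPM and Itga2b at 4.56, 0, 2.81 and 0 CPM, and neither was called. The platelet gene Ppbp and the mast cell genes Cpa3, Mcpt4 and Tpsb2 had no count. The sums were 22.7, 12.5, 20.0 and 25.6 CPM for endothelium (0 of 4 tested called above 10 CPM by edgeR with or without adjustment of p, and 0 by limma-voom and DESeq2), and 1.72, 3.15, 13.6 and 70.6 CPM for ependymal cells (likewise 0 of 8). They were 954, 157, 908 and 278 CPM for astrocytes (2 of 8 called) and 45.9, 98.1, 751 and 343 CPM for neurons (2 of 8 called). For each list, the share to set beside these calls is the 36.7% of all tested genes called above 10 CPM by edgeR. The astrocyte sums came mostly from Aldoc (835, 11.6, 846 and 118 CPM) and Slc1a3 (115, 122, 52.1 and 155 CPM). Of the 8 astrocyte genes, limma-voom called 5 below 10 CPM, and likewise 5 of the 8 ependymal genes. Of all tested genes it called 33.3% below, while edgeR called 0 of either list below. Aqp4 averaged 1.59 CPM.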

How the data were processed

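Bulk RNA-seq of 50 sorted cells from each of 4 mice was analysed. Per the labels' protocols, SMART-Seq v4 with 11 PCR cycles gave the cDNA and Nextera XT the libraries, so counts grow with transcript length, keep no strand and carry no molecular identifiers. The authors deposited whole-number counts for 42458 rows with 2 columns per mouse, and a table of log2 values that, from the values, equals log2 of the summed counts over a size factor plus 1. That log2 table served only as an alternative. FastQC, Trim Galore, STAR, RSEM and DESeq2 with build mm10 are named in the submitters' processing notes. For their roles, their versions and the gene annotation, no information is given in the sources used here. Column sample numbers were taken as mouse numbers. The columns of a mouse (Spearman 0.995 to 0.997 over genes with a count, the 10 genes within 5.59%) were summed as repeat runs. No column was left without a sample.

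CPM used TMM factors (0.935, 0.982, 1.04 and 1.05). The level test was edgeR 4.0.16 in R 4.3.3, an intercept-only quasi-likelihood model with an offset set to 10 CPM; F was computed from the fitted deviances, with its Poisson bound, and the SE is the log2 level over the square root of F. The threshold was an adjusted p of 0.05. The procedure was tested on simulated data. Alternatives used limma 3.58.1 and DESeq2 1.42.0 (which gave some low genes no adjusted p), other size factors, no count filter, other reference levels, 1 run alone and fewer mice. Pair ratios added 0.1 CPM. Exonic lengths (union of exons) and positions come from GENCODE M21. Python 3.11.15, scipy 1.17.1 and matplotlib 3.10.9 were used. Genes named are the 10 members, the 4 highest of each other list (all of lists of 5 or fewer), the closest patterns, overlapping genes, genes at 0 in a library, those with 1 library far from the rest, and those said to be named after their values were seen. The members and the 17 other lists (131 genes) were chosen with earlier results of these data known. An item of these lists is not reported here.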

Additional observations from a re-analysis of the deposited data

Results flagged for a closer look

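Among 81 sets of 4 values (the named genes that reached 1 CPM in a library, and the pair ratios), 10 had 1 library far from the other 3, measured as the gap to the nearest value over the whole range, past the 95% limit of Dixon's test. For normally distributed values chance flags about 1 in 20 sets. That rate need not hold for CPM values, some of which come from libraries without a count. None of the 10 purinergic genes of the report was among those flagged. P2ry10b (0.887) was high in mouse 1, at 120 CPM against 47.9 to 56.1 CPM in the other mice. P2ry2 (1) had counts in mouse 4 alone, and P2rx3 (0.906) was highest in mouse 2, at 1.11 CPM. Panx1 (0.847) was low in mouse 4, at 0.334 CPM, and Gsdmd (0.910) was low in mouse 3, at 82.6 CPM. The ependymal genes Rsph1 (0.915), Ccdc153 (0.999) and Rarres2 (0.999) and the astrocyte gene Aqp4 (0.872) were high in mouse 4, at 15.1, 15.8, 10.2 and 5.45 CPM. Slco1a4 (0.904) was highest in mouse 1, at 3.23 CPM.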

How the results depend on the processing

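Of the 10 genes, 8 were called under each alternative set against 10 CPM, which included other normalizations, tests and filters, either run alone and each mouse left out. The count was 9 against 1 CPM and 5 against 100 CPM (P2ry12, P2ry13, P2ry6, Gpr34 and Entpd1), a level above which 5.82% of all genes were called. Over all genes the count of 6795 became 10954 against 1 CPM and 1078 against 100 CPM. The log2 level of Adora1 turned negative without mouse 1 (-0.049), without mouse 3 (-0.33) and by limma-voom (-2.26). The mean log2 ratio of P2ry12 over Gpr34 was 0.21 without length scaling and 0.040 with the longest transcript, and that of P2rx4 over P2rx7 ranged from -0.058 to 0.14 when each mouse was left out in turn and was 0.60 with the longest transcript. The median SD between mice became 0.21 (0.35 before) after division by the microglia list sum, an alternative chosen after seeing the data. Other pair ratios kept their sign under the alternatives run. No comparison between groups of mice was possible because the series has a single group. With 4 libraries of 50 cells, a count of 0 limits only what each sequenced library held.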
